A study of Mus musculus with 6 samples.

Results

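The genes described here carry electrical activity in the heart: potassium, calcium, sodium-associated and pacemaker channels, the connexins of gap junctions, an exchanger, a pump subunit and the Popeye domain proteins. The list held 35 genes, and a gene was followed through the transcript cluster annotated to it alone, taking the cluster with the highest mean over all 6 arrays where there were several. A transcript cluster is the unit of the array that stands for a gene. Such clusters were found for 33 of the 35 genes, out of 14860 genes with a cluster of their own, while *Hcn4* and *Bves* were not analysed here. RNA came from hearts of E9.5 mouse embryos on Affymetrix Mouse Exon 1.0 ST arrays, with 3 arrays for wildtype embryos (Mesp1+/+; Hic2 FL/FL) and 3 for conditional mutants (Mesp1Cre/+; Hic2 FL/FL). Embryos without Cre were taken as wildtype, and although the labels give FL/FL, the study's methods also admit Hic2 FL/+ embryos as wildtype, so the share of each in these pools is not known. Cre replaces the coding sequence of *Mesp1* in the mutants, which acts in anterior mesoderm including part of the blood lineage, so that loss of *Hic2* and of one *Mesp1* copy cannot be told apart in this comparison. For each array, RNA of 4 to 6 whole hearts was pooled together with their blood, the pools being biological replicates by the study's account, and the hearts were dissected from embryos without a visible phenotype.

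The heartbeat begins in the heart tube, where cells of the inflow region depolarise on their own and the current passes from cell to cell through gap junctions. Inward currents through HCN, sodium and calcium channels drive the upstroke and the pacemaker potential, and outward potassium currents end the action potential and hold the resting potential. Pore-forming subunits set which ion passes, while accessory subunits, several of which are in the list, set gating and surface level.

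*Hic2*, the deleted gene, read 9.35, 9.36 and 8.91 on the log2 scale in wildtype pools and 8.27, 8.23 and 8.37 in mutant pools. Every mutant array was below every wildtype array, and the difference by limma was -0.92 (standard error 0.137, adjusted p = 0.125). *Mesp1* was below the intensity filter in both genotypes. Over all 10439 clusters tested, the median log2 difference was -0.09 and 71.8% lay below 0, against which the values of single genes should be read. Cardiomyocyte markers were bright on every array, with a median log2 level of 13.11 to 13.27 over 10 genes and a summed linear level of 85102 to 89967 in the wildtype and 84737 to 93318 in the mutant. Erythroid markers were higher in the mutant in 19 of 19 genes tested. Limma passed 16 of them without adjustment (unadjusted p under 0.05), where 1.68% of all clusters were higher. It passed 0 with adjustment, beside 0.0671% of all clusters in either direction. The summed level of these markers was 6070 to 9581 in the wildtype and 11149 to 16524 in the mutant. In such pools, fewer cells of a type and less RNA per cell cannot be told apart. Endothelial and endocardial markers were below 0 in 12 of 14 genes tested, with a median log2 difference of -0.20. Limma put 4 of them lower and 0 higher without adjustment, beside 5.9% and 1.68% of all clusters. Their part, and that of blood, in the differences of the channel genes was not tested. The median of the erythroid markers on an array was 7.69 to 8.58 in the wildtype and 8.70 to 9.48 in the mutant. These ranges did not overlap, so fits with that median as a covariate cannot part blood from genotype. Nothing on the part of blood is read from them. Summed levels of the other lists, wildtype then mutant, were 28171 to 29811 and 25160 to 28788 for endothelial and endocardial, 4318 to 5664 and 3358 to 4702 for epicardial, 34622 to 34947 and 33844 to 34608 for smooth muscle and mural, 993 to 1148 and 852 to 1040 for neural, 551 to 1307 and 663 to 2400 for liver and yolk sac, and 881 to 1056 and 873 to 1016 for pharyngeal and foregut markers.

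At an unadjusted threshold, 4 genes differed between the genotypes. *Kcne1*, an accessory subunit of the slow delayed rectifier potassium channel, was higher in the mutant, and *Abcc9*, the sulphonylurea receptor subunit of ATP-sensitive potassium channels, and *Scn4b*, an accessory subunit of sodium channels, were lower. *Cacna1g*, a pore of T-type calcium channels, was also higher, but it passed the intensity filter only through the mutant. Of the 33 genes, 29 had a mean linear value over 100 in the higher genotype and were tested with limma, an empirical Bayes linear model, on the log2 values. After Benjamini-Hochberg adjustment over all clusters, 0 of the 29 passed an adjusted p under 0.05, against 0.0671% of all clusters tested. At an unadjusted p under 0.05, 2 were higher in the mutant (*Kcne1* and *Cacna1g*), where 1.68% of all clusters were, and 2 were lower (*Abcc9* and *Scn4b*), where 5.9% were. Because *Cacna1g* could enter only by being high in the mutant, nothing is read from the higher count. The per-cluster test named in the methods passed the same 4 genes unadjusted (1.58% of all clusters higher and 4.05% lower) and 0 once adjusted (0% of all clusters). The counts of 2 and 2 depended on the arrays and on scaling. They were 2 and 5 after median centring, where 1.94% of all clusters were higher and 11.2% lower, and 1 and 7 with the erythroid covariate, where the shares were 1.03% and 22.6%. Without wildtype replicate 3 they were 2 and 7 (1.4% and 18.1%), without wildtype replicate 2 they were 1 and 2 (1.12% and 1.8%), and without mutant replicate 3 they were 2 and 3 (3.29% and 16.7%). Quantile normalisation gave 3 and 2 (3.3% and 5.71%), as did cyclic loess (3.73% and 4.57%). Only *Kcne1* and *Abcc9* differed by over 1.5-fold, a size reached by 1.02% of all clusters. The median log2 difference of the 29 genes was -0.03 (quartiles -0.17 and 0.05, n = 3 arrays per genotype), beside -0.09 over all clusters. Of the 29, 20 lay below 0, beside 71.8% of all clusters.

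The genotypes did not overlap for 6 of the 29 genes. Every mutant array was above every wildtype array for *Kcne1*, *Cacna1g* and *Kcnj12*, a pattern seen in 2.82% of all clusters. Every mutant array was below for *Abcc9*, *Scn4b* and *Cacna1c*, a pattern seen in 9.59%. *Cacna1g* passed the intensity filter only through the mutant, so nothing is read from the count of genes above.

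**Figure D1:**
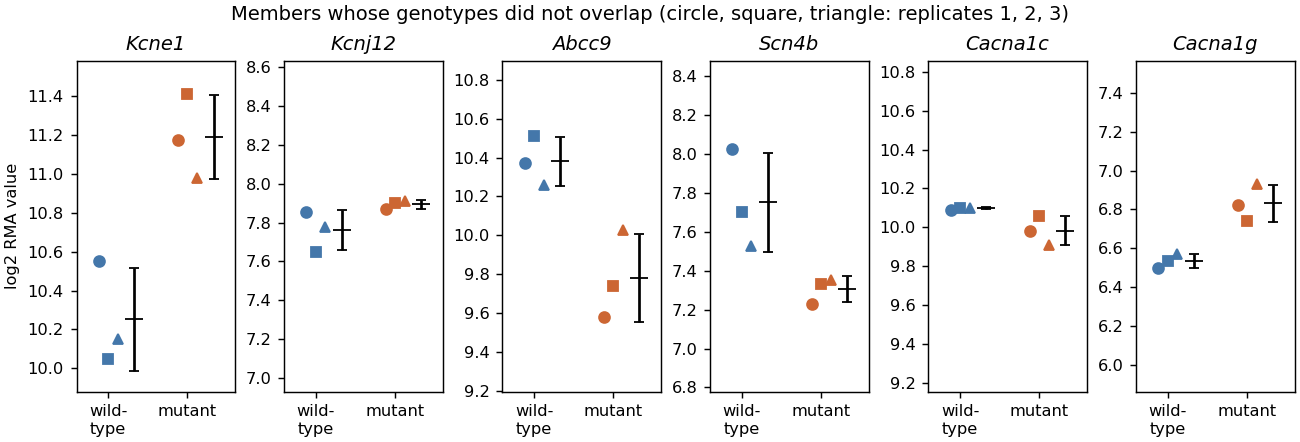
Log2 RMA value (y axis, the same span in each panel) of the 6 tested genes whose genotypes did not overlap, with 1 point per array and the mean ± SD of 3 arrays as a bar beside it. The gap between genotypes was widest for *Kcne1*, at 0.43, and only 0.01 for *Kcnj12* and 0.03 for *Cacna1c*.

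Among the genes with a difference at that threshold, *Abcc9* and *Scn4b* have a promoter in the RefSeq table used here (GRCm38.p6), as do 25 of the 35 genes. *Kcne1* and *Cacna1g* have none in it. The promoters of the 2 lower genes are shown because HIC2 is a DNA-binding factor and these are the windows in which its sites would be sought, from 250 bases before the annotated start to 50 after it. Capitals mark GGCA or its reverse complement TGCC, the core of sites bound by the related factor HIC1, and CTANNNNTA or its reverse complement TANNNNTAG, a loose form of the site of the muscle factor MEF2. The motifs do not overlap each other in either window.
*Abcc9*, chr6:142702225-142702524, minus strand: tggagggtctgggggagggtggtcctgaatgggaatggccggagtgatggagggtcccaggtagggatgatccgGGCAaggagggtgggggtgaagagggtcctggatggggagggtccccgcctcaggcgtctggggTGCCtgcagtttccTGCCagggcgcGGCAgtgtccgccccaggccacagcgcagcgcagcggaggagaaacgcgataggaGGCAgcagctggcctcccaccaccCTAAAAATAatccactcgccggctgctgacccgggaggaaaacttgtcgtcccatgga
*Scn4b*, chr9:45138374-45138673, plus strand: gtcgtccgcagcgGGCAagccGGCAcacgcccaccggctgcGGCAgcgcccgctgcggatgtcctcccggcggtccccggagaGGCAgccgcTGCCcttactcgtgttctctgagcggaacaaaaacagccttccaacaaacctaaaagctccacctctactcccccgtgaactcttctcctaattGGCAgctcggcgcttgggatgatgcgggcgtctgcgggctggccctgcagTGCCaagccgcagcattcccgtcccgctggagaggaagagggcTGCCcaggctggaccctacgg
The *Abcc9* window held 5 matches to GGCA and 1 to CTANNNNTA, and the *Scn4b* window 8 and 0. A GGCA match occurred in 92.4% of all 32851 promoter windows and in 29 of the 29 windows of the listed genes, which makes it a common string. CTANNNNTA occurred in 21% of all windows and in 4 of those 29. These matches describe the letters and were not tested as binding sites.

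The voltage-gated potassium channels and their subunits end the action potential. Of 6 genes tested in this group, 1 was higher and 0 were lower at an unadjusted p under 0.05 by limma (1.68% and 5.9% of all clusters). *Kcne1* read 10.55, 10.05 and 10.15 in wildtype pools on the log2 scale, and 11.18, 11.41 and 10.98 in mutant pools. All 3 mutant pools thus lay above all 3 wildtype pools. This was a log2 difference of 0.94 (standard error 0.161, n = 3 per genotype, unadjusted p = 3.17e-04, adjusted p = 0.168 from limma), or 1.91-fold. Fitted with the erythroid covariate, the median log2 level of 19 erythroid genes on an array, it was 0.92 (standard error 0.281, unadjusted p = 0.0161 from limma). Leaving out single arrays gave 0.83 to 1.09, at unadjusted p-values between 1.45e-04 and 0.00183 by limma.
*Kcnq1*, the pore-forming partner of *Kcne1*, was at 8.77, 8.61 and 8.40 in the wildtype and 8.42, 8.28 and 8.39 in the mutant. The highest mutant pool, replicate 1, lay just above the lowest wildtype pool, replicate 3, and the log2 difference was -0.23 (standard error 0.118, adjusted p = 0.606 from limma). The 2 subunits of this channel thus had differences of opposite sign, of which only that of *Kcne1* passed the unadjusted threshold. *Kcnq1* passed it as well, without wildtype replicate 3 (unadjusted p = 0.0147 from limma) and after median centring (unadjusted p = 0.0342 from limma). In those fits 18.1% and 11.2% of all clusters were lower at that threshold.
*Kcnh2*, which carries the rapid delayed rectifier current, differed by -0.01 (standard error 0.0962), and its 95% interval was -0.23 to 0.21. *Kcna5*, of the ultra-rapid current, differed by -0.15 (standard error 0.160), with mutant replicate 2 the lowest of its 6 arrays at 8.47. The pore subunits of the transient outward current, *Kcnd2* and *Kcnd3*, differed by -0.17 (standard error 0.209) and -0.19 (standard error 0.123), neither past the unadjusted threshold. *Kcnd2* was the least even of the tested genes, at 7.32 and 7.42 in wildtype replicates 1 and 2 and 6.61 in wildtype replicate 3. Without that array its difference was -0.42, at an unadjusted p of 0.0133 from limma, and *Kcnd3* was at -0.30 and 0.0174 without mutant replicate 3. In those fits 18.1% and 16.7% of all clusters were lower at the unadjusted threshold. *Kcnip2*, the accessory subunit of these pores, was below the intensity filter in both genotypes, at mean log2 values of 6.04 each.

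The inward rectifier, ATP-sensitive and two-pore potassium channels set the resting potential and couple it to metabolism and vagal input. Of 7 genes tested, 0 were higher and 1 was lower at an unadjusted p under 0.05 by limma, beside 1.68% and 5.9% of all clusters. *Abcc9* was at 10.37, 10.51 and 10.26 in the wildtype and 9.58, 9.74 and 10.03 in the mutant. The highest mutant pool, replicate 3, lay 0.23 below the lowest wildtype pool. The log2 difference was -0.60 (standard error 0.135, n = 3 per genotype, unadjusted p = 0.00188, adjusted p = 0.370 from limma), or a fold of 0.661. Leaving out single arrays gave -0.72 to -0.50, at unadjusted p-values between 4.14e-04 and 0.00977 by limma, and it was -0.85 with the erythroid covariate. In the fit with that covariate the median of all clusters was -0.22, and 22.6% were lower at an unadjusted p under 0.05. *Abcc9* is also expressed in mural cells of vessels. The smooth muscle and mural list had 5 of 7 genes below 0, a median log2 difference of -0.05 and 0 genes at an unadjusted p under 0.05 by limma. The epicardial list had 7 of 8 below 0, a median of -0.36 and 1 gene lower at that threshold. Of all clusters, 71.8% lay below 0, with a median of -0.09, and 5.9% were lower at that threshold. The part of these cell types in the *Abcc9* difference was not tested.
*Kcnj11* and *Kcnj8* form the pores that assemble with sulphonylurea receptors. *Kcnj11* differed by 0.08 (standard error 0.143), with a 95% interval of -0.24 to 0.41 that leaves out the size seen for *Abcc9*. *Kcnj8*, which neighbours *Abcc9* in the RefSeq gene order, was below the filter, at 6.13, 6.15 and 6.43 in the wildtype and 6.19, 6.40 and 6.31 in the mutant. The genotypes overlapped.
*Kcnj2* and *Kcnj12* form the inward rectifier that holds the resting potential. *Kcnj2* was at 8.39, 8.41 and 7.74 in the wildtype and 7.84, 7.71 and 8.16 in the mutant. Wildtype replicate 3 was as low as the mutant pools. The log2 difference was -0.28 (standard error 0.197, unadjusted p = 0.197 from limma), and -0.50 without that array (unadjusted p = 0.00957 from limma). Without it, 18.1% of all clusters were lower at an unadjusted p under 0.05. *Kcnj12* was at 7.86, 7.65 and 7.78 in the wildtype and 7.87, 7.90 and 7.91 in the mutant. These groups were parted by 0.01 alone, and the difference of 0.13 (standard error 0.0972) had an unadjusted p of 0.209 from limma.
The subunits of the acetylcholine-activated channel through which the vagus slows the heart, *Kcnj3* and *Kcnj5*, differed by -0.02 (standard error 0.132) and by less than 0.01 in size (standard error 0.103), and *Kcnk3*, a leak channel, also by less than 0.01 (standard error 0.128). Their 95% intervals lay within 1.5-fold of equal levels.

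**Figure D2:**
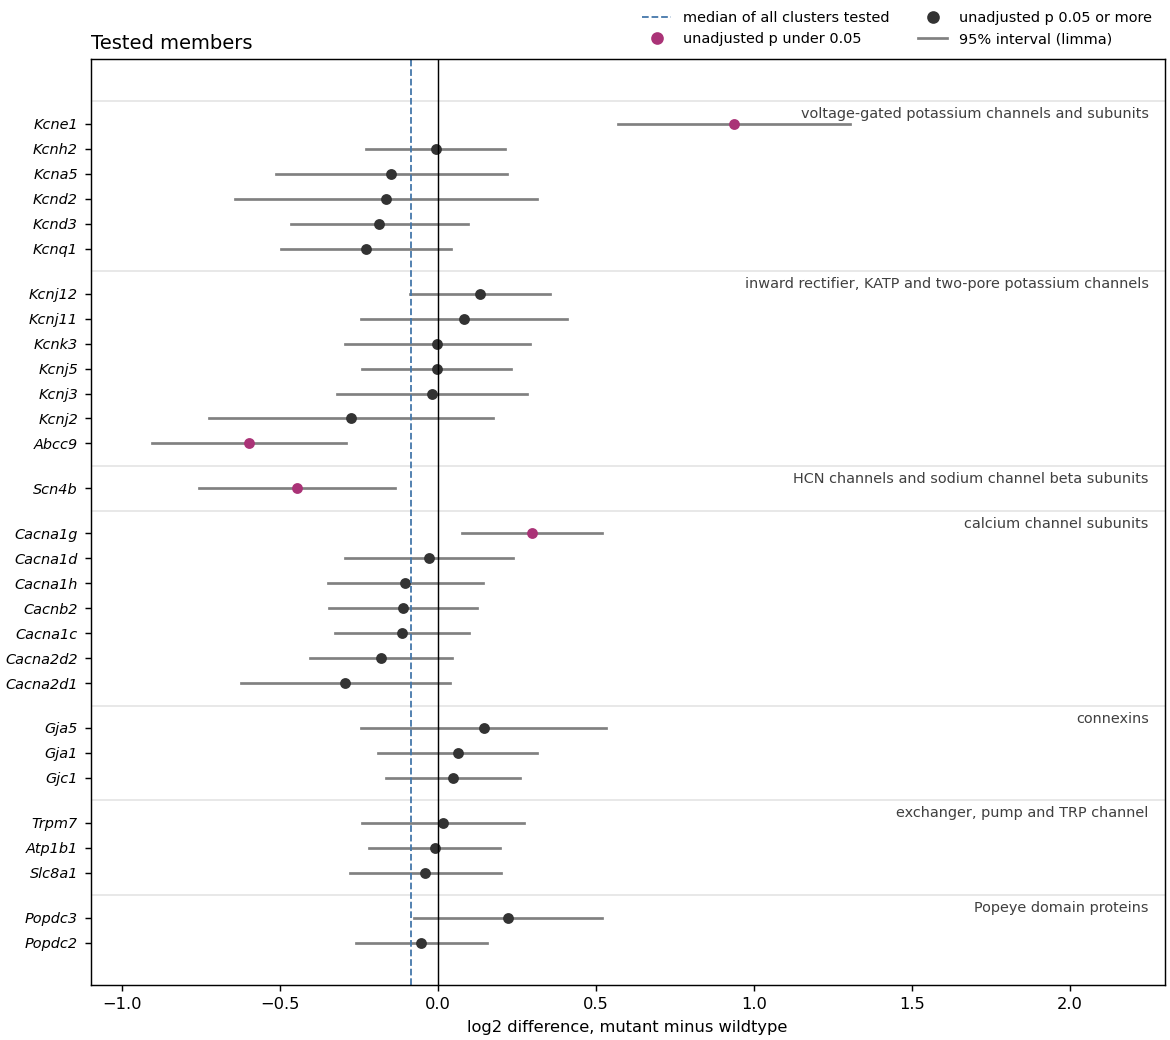
Log2 difference, mutant minus wildtype (x axis), of the 29 tested genes with its 95% interval from limma, ordered by role, and the median of all clusters, -0.09, as a dashed line. The points of *Kcne1*, *Cacna1g*, *Abcc9* and *Scn4b* are coloured as past an unadjusted p of 0.05, and 23 of the 29 intervals lie within 1.5-fold of equal levels.

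HCN channels carry the pacemaker current, and sodium channel beta subunits modulate the sodium current of the upstroke. Only *Scn4b* of this group was tested. It was at 8.03, 7.70 and 7.53 in the wildtype and 7.23, 7.33 and 7.35 in the mutant. The mutant pools lay close together below a wider wildtype group. The log2 difference was -0.45 (standard error 0.136, n = 3 per genotype, unadjusted p = 0.0102, adjusted p = 0.606 from limma), or a fold of 0.734. It was -0.31 without wildtype replicate 1, the highest array (unadjusted p = 0.0331 from limma), and -0.74 with the erythroid covariate (unadjusted p = 0.00451 from limma). In those fits 1.71% and 22.6% of all clusters were lower at an unadjusted p under 0.05. With the covariate the median of all clusters was -0.22.
*Hcn2* was below the filter, at 6.48, 6.36 and 6.27 in the wildtype and 6.52, 6.63 and 6.61 in the mutant. Every mutant array was above every wildtype array by at least 0.04, and with no filter its log2 difference of 0.21 had an unadjusted p of 0.0521 from limma. *Scn3b* was at mean log2 values of 4.43 in the wildtype and 4.28 in the mutant, and overlapped between genotypes.

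Calcium channels drive the embryonic action potential and bring in the calcium that triggers contraction. Of 7 subunits tested, 1 was higher and 0 were lower at an unadjusted p under 0.05 by limma, beside 1.68% and 5.9% of all clusters. The difference was below 0 for 6 of them, as for 71.8% of all clusters. *Cacna1g*, a pore of the T-type channels that open near the resting potential, was at 6.50, 6.54 and 6.57 in the wildtype and 6.82, 6.74 and 6.93 in the mutant. The log2 difference was 0.30 (standard error 0.0965, n = 3 per genotype, unadjusted p = 0.0140, adjusted p = 0.606 from limma), or 1.23-fold. Its wildtype mean, 92.7 on the linear scale, was below the filter of 100 and its mutant mean of 114 above it, so the gene was tested through the mutant alone, and a gene that enters in this way must be higher there. It no longer passed without wildtype replicate 2 (unadjusted p = 0.0523) or with the erythroid covariate (difference 0.25, unadjusted p = 0.124). The other T-type pore, *Cacna1h*, differed by -0.10 (standard error 0.107).
The L-type pores carry most of the calcium current of the working heart. *Cacna1c*, the main pore of the ventricle, was at 10.09, 10.10 and 10.10 in the wildtype and 9.98, 10.06 and 9.91 in the mutant. The wildtype pools were nearly identical, and each mutant pool lay slightly below them, for a log2 difference of -0.11 (standard error 0.0925, unadjusted p = 0.249 from limma), close to the median of all clusters. *Cacna1d*, an L-type pore of pacemaker cells, differed by -0.03 (standard error 0.116), and *Cacnb2*, the intracellular beta subunit, by -0.11 (standard error 0.103).
Both alpha2delta subunits, which raise the channel at the surface, had values below 0. *Cacna2d1* was at 7.93, 8.03 and 7.49 in the wildtype and 7.51, 7.49 and 7.57 in the mutant. The mutant pools matched wildtype replicate 3, and the difference of -0.29 (standard error 0.145, unadjusted p = 0.0760 from limma) became -0.46 without that array (unadjusted p = 0.00173). *Cacna2d2* differed by -0.18 (standard error 0.0991) and likewise passed without it (unadjusted p = 0.0462 from limma). Without wildtype replicate 3, 18.1% of all clusters were lower at an unadjusted p under 0.05.

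Connexins join heart muscle cells electrically. All 3 had a difference above 0, while 71.8% of all clusters lay below 0, but these signs were not stable. Without wildtype replicate 3, *Gja1* and *Gja5* were each at -0.02 and *Gjc1* at 0.03. With the erythroid covariate, *Gja1* was at -0.11, *Gjc1* at -0.02 and *Gja5* at 0.06. None passed (0 of 3 by limma, adjusted or unadjusted), beside 1.68% of all clusters higher and 5.9% lower at an unadjusted p under 0.05. *Gja5*, the connexin of atrium and fast conduction, was at 10.61, 10.64 and 10.12 in the wildtype and 10.81, 10.62 and 10.36 in the mutant. The genotypes overlapped, and replicate 3 was lowest in both, with a log2 difference of 0.14 (standard error 0.170). *Gja1*, the major connexin of ventricular muscle, was at 11.17, 11.18 and 10.92 in the wildtype and 11.06, 11.18 and 11.22 in the mutant, a difference of 0.06 (standard error 0.110). *Gjc1*, the connexin of the early heart tube, differed by 0.05 (standard error 0.0929). The 95% intervals of all 3 lay within 1.5-fold of equal levels.
Of the 3 transport genes and 2 Popeye genes tested, 0 passed the unadjusted threshold by limma, beside 1.68% of all clusters higher and 5.9% lower. *Slc8a1*, the sodium-calcium exchanger, was at 12.27, 12.37 and 12.51 in the wildtype and 12.31, 12.28 and 12.44 in the mutant, a difference of -0.04 (standard error 0.105). A further cluster of the gene differed by -0.13 (standard error 0.0927), so that both lay below 0 and neither passed. *Trpm7*, a channel that is also a kinase, was at 9.49, 9.74 and 9.58 in the wildtype and 9.62, 9.49 and 9.74 in the mutant, a difference of 0.02 (standard error 0.113).
*Atp1b1*, the beta subunit of the sodium pump, had the smallest standard error of the tested genes, 0.0906, and a difference of -0.01. The Popeye proteins bind cyclic AMP, and *Bves* and *Popdc2* are needed for normal pacemaking under stress in adult mice. *Popdc2* was at 12.90, 12.86 and 12.94 in the wildtype and 12.82, 12.83 and 12.90 in the mutant, a difference of -0.05 (standard error 0.0907). *Popdc3* was at 9.32, 9.20 and 8.91 in the wildtype and 9.49, 9.37 and 9.23 in the mutant. The groups overlapped. Each mutant replicate was above the wildtype replicate of its number, but what the numbers stand for is not stated. With the number as a block, *Popdc3* had an unadjusted p of 0.0524 from limma. The difference of 0.22 (standard error 0.131, unadjusted p = 0.127 by limma) passed the unadjusted threshold after quantile normalisation (0.30, unadjusted p = 0.0127 from limma) and cyclic loess (0.32, unadjusted p = 0.0111). In those fits 3.3% and 3.73% of all clusters were higher at that threshold.

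**Figure D3:**
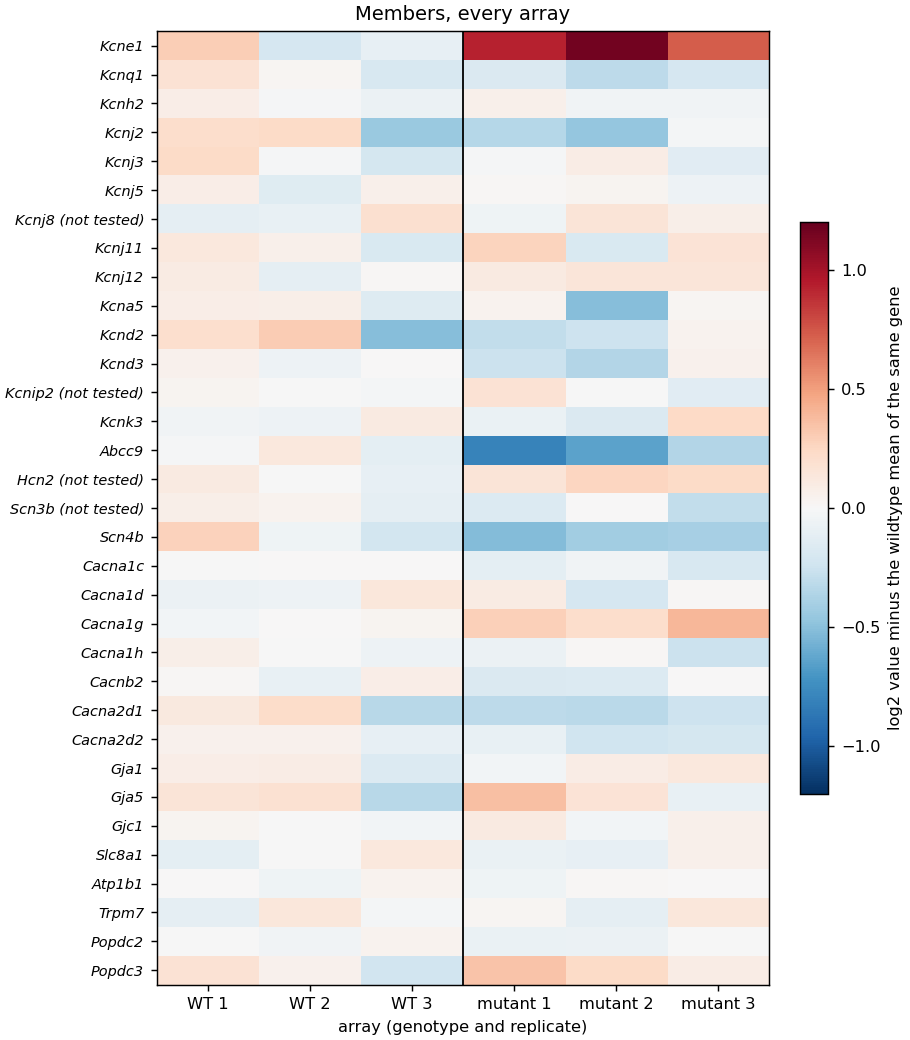
Log2 value of each of the 33 genes (rows, in list order) on each array (columns) minus the wildtype mean of the same gene. Red is higher and blue lower, and the row of *Kcne1* is red in all 3 mutant arrays, where it lay at 10.98 to 11.41, while those of *Abcc9* and *Scn4b* are blue there.

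The precision of these values differs by gene. The 95% interval reached 0.207 to 0.477 to either side of the log2 difference, with a median of 0.266. For 23 of the 29 tested genes the interval lay within 1.5-fold of equal levels in both directions, as it did for 84% of all clusters. The 6 others were *Kcne1*, *Abcc9*, *Scn4b*, *Kcnj2*, *Kcnd2* and *Cacna2d1*, and for the last 3 a lower level by over 1.5-fold in the mutant could not be told from none. Part of the spread followed the arrays. Wildtype replicate 3 was the lowest wildtype array for 16 of the 29 genes, against 73.9% of all clusters, and mutant replicate 2 the lowest mutant array for 14, against 53.3%.

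**Figure D4:**
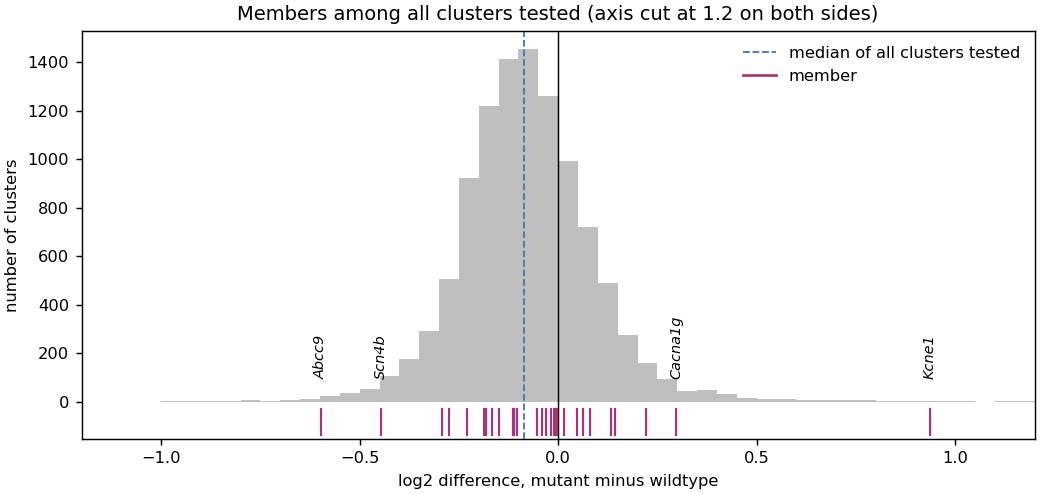
Number of clusters (y axis) by log2 difference, mutant minus wildtype (x axis, bins of 0.05), for the clusters tested between -1.2 and 1.2, with each of the 29 genes as a tick below. Most ticks fall in the body of the distribution, with *Kcne1* at 0.94 and *Abcc9* at -0.60 in its tails.

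Genes next to the 4 named by the unadjusted threshold were looked at after these values had been seen, taking the 2 nearest tested protein-coding genes on each side in the RefSeq gene order. Of these 16 neighbours, 2 differed at an unadjusted p under 0.05 by limma, both lower in the mutant, where 5.9% of all clusters were lower. They were *Clic6*, an intracellular chloride channel gene near *Kcne1*, at -0.75 (standard error 0.134, adjusted p = 0.176 from limma), and *St8sia1*, a sialyltransferase gene near *Abcc9*, at -0.77 (standard error 0.253, adjusted p = 0.606 from limma). All 3 mutant pools were below all 3 wildtype pools for both genes. *Rcan1* and *Cmas*, the protein-coding genes that directly adjoin *Kcne1* and *Abcc9* on one side, were at -0.08 and -0.03. *Scn2b*, another sodium channel beta subunit and the tested gene nearest to *Scn4b* on one side, was at 7.71, 7.53 and 7.36 in the wildtype and 7.40, 7.17 and 7.20 in the mutant. The groups overlapped narrowly, for a log2 difference of -0.27 (standard error 0.122, unadjusted p = 0.0544 from limma).

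Other genes of the same families and of channel anchoring were counted from lists of related genes. Of 38 further channel, pump and connexin genes tested, 4 were higher and 5 lower at an unadjusted p under 0.05 by limma (1.68% and 5.9% of all clusters), with a median log2 difference of -0.07, and of 31 genes of channel anchoring, the intercalated disc and conduction, 1 was higher and 2 were lower, with a median of -0.14. None passed after adjustment (0 by limma). The counts over both lists, 5 higher and 7 lower, varied with the setting, as did the shares of all clusters. They were 6 and 11 with the replicate number as a block (2.69% and 7.43% of all clusters), 6 and 1 without wildtype replicate 1 (1.81% and 1.71%), and 2 and 17 without wildtype replicate 3 (1.4% and 18.1%).
*Kcnn4*, the calcium-activated potassium channel of red cells, had the lowest p, at 8.08, 7.61 and 7.68 in the wildtype and 8.55, 8.39 and 8.69 in the mutant. The groups did not overlap, and by limma the log2 difference was 0.75 (standard error 0.145, adjusted p = 0.212). It was highest on mutant replicate 3, which also had the highest erythroid median, 9.48 against 7.69 to 8.58 in the wildtype, and the part of blood in the difference was not tested. The others that were higher were *Cav3*, which encodes the caveolin of muscle membranes, at 0.59 (standard error 0.200), *Gjd3*, a connexin, at 0.39 (standard error 0.150), and the channel subunits *Kcna2* and *Cacng4* at 0.31 and 0.23.
Of the 7 lower genes, the 6 with the lowest p are named. Among them, *Scn7a* and *Kcnd1* passed the intensity filter only through the wildtype. Their mutant means, 6.58 and 6.45 on the log2 scale, were below its limit of 100, or 6.64 on that scale. Genes that enter in this way must be lower in the mutant, so nothing is read from the lower count. *Atp1b2*, another beta subunit of the sodium pump, was at 10.16, 10.09 and 10.05 in the wildtype and 9.83, 9.77 and 9.78 in the mutant. By limma the log2 difference was -0.30 (standard error 0.0916, unadjusted p = 0.00986). The genotypes did not overlap for *Atp1b2*, while they did for its relative *Atp1b1*. *Ank2*, the ankyrin that anchors pumps and exchangers, was at -0.45 (standard error 0.149), *Ctnna3*, a catenin of the intercalated disc, at -0.39 (standard error 0.130), *Kcnn2*, a calcium-activated potassium channel, at -0.50 (standard error 0.184), *Scn7a*, an atypical sodium channel, at -0.47 (standard error 0.172), and *Kcnd1*, a further pore of the transient outward family, at -0.30 (standard error 0.0998).

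**Figure D5:**
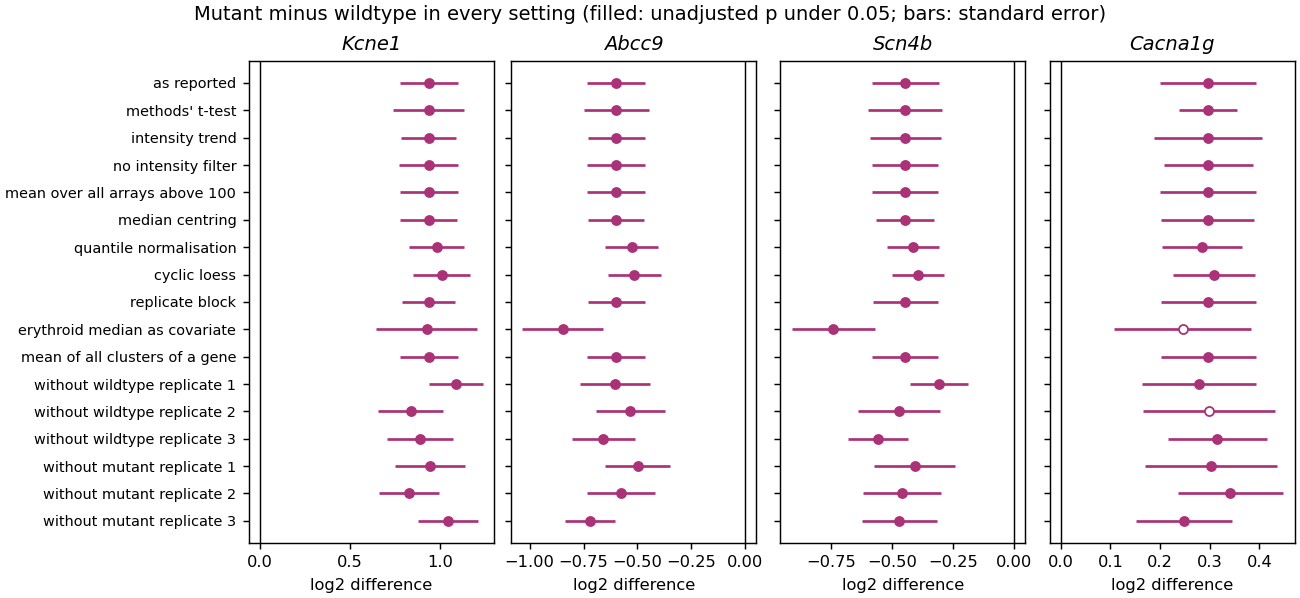
Log2 difference, mutant minus wildtype (x axis), of the 4 genes past an unadjusted p of 0.05, as reported and under each of 16 alternatives (y axis), with the standard error as bars and open circles where the unadjusted p was 0.05 or more. *Kcne1*, *Abcc9* and *Scn4b* stayed on the same side of 0 and past that threshold in 17 of 17 fits, and *Cacna1g* in 15.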

How the data were processed

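Expression was measured on 6 arrays, 3 per genotype. The authors deposited log2 values, which they had made at gene level by RMA in Affymetrix Expression Console from its core gene predictions, and these were analysed unchanged. Neither software version nor genome build is given in the sources used here. No 2 arrays were identical. Following the methods, a cluster was tested if it was annotated to a gene and its linear mean was over 100 in the higher genotype, which kept 10439 of 23332. Genotypes were compared with limma 3.58.1 (lmFit, eBayes) in R 4.3.3, and p-values were adjusted over all these clusters by Benjamini-Hochberg. The number of arrays limits the precision. A p-value sets the difference against the spread between pools, which limma moderates with the spread of all clusters tested. The limma fit was tested on simulated data with independent errors, which lack the shifts shared by many clusters of an array.

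The genes and lists, and the rule for naming, were chosen with earlier results of these data known. Values in every array are given at least for genes at an unadjusted p under 0.05, genes without overlap, and the 2 lowest p-values of each role. Related genes are named at an unadjusted p under 0.05, up to 6 per direction. They came from lists of 88 and 37 genes, of which 38 and 31 were tested. Marker lists were cardiomyocyte, erythroid, endothelial and endocardial, epicardial, smooth muscle and mural, neural, liver and yolk sac, and pharyngeal and foregut markers.

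There were 16 alternatives, comprising the methods' t-test, an intensity trend, no intensity filter, a filter on the mean of all arrays, median centring, quantile normalisation, cyclic loess, a replicate block, the erythroid covariate, the mean of a gene's clusters, and the removal of each array. Deviations from the genotype means correlated between arrays of one replicate number (0.311, 0.142 and 0.458), so the numbers were taken as pairs in the block. What they stand for is not stated, and arrays of different numbers correlated at -0.424 to 0.303, with wildtype 2 and mutant 1 (0.303) and wildtype 1 and mutant 2 (0.231) above the 0.142 of number 2. Promoters and gene order came from RefSeq tables of GRCm38.p6, and both the motifs and the neighbouring genes were examined after the differences had been seen. Figures were drawn with matplotlib 3.10.9.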

Additional observations from a re-analysis of the deposited data

How the results depend on the processing

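None of the 29 genes passed the adjusted threshold under any of the 16 alternatives (0 by limma and by the methods' t-test). *Kcne1*, *Abcc9* and *Scn4b* passed the unadjusted threshold in all 16, with adjusted p-values of 0.101 to 0.667, 0.149 to 0.937 and 0.151 to 1, and *Cacna1g* in all but the erythroid covariate and the removal of wildtype replicate 2. These genes had been named by that threshold on the same arrays, so passing it again is not separate support. The 2 higher and 2 lower genes became 2 and 5 after median centring and 1 and 7 with the erythroid covariate. Leaving out single arrays gave 1 to 2 higher and 2 to 7 lower. The replicate block changed no call among the 29 genes (adjusted p of *Kcne1* = 0.129) and moved the lower related genes from 7 to 11. These numbered 13 after median centring (11.2% of all clusters lower) and 18 with the covariate (22.6%), where 1 was higher, and 1 to 17 lower (1.71% to 18.1%) and 2 to 7 higher with single arrays left out. The median difference of the 29 genes ran from -0.07 (covariate) to 0.03 (quantile normalisation). Relative to the differences reported, 6 genes changed sign with quantile normalisation, 5 with cyclic loess, 8 with the covariate and 8 without wildtype replicate 3. Leaving out any other single array changed the sign of 0 to 4 genes. The covariate moved the median of all clusters from -0.09 to -0.22. The difference of *Hic2* passed adjustment under median centring (-0.92, adjusted p = 0.0442), quantile normalisation (-0.84, adjusted p = 0.0390) and cyclic loess (-0.82, adjusted p = 0.0388), and with single arrays left out it lay between -1.07 (wildtype replicate 3, adjusted p = 0.0244) and -0.84. The causes were not tested.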
